A study of Mus musculus with 3 samples.

Results

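PRDM9-dependent H3K4me3 peaks in coding exons are the subject here: 2521 of the 101978 narrow peaks called in mouse testis. A peak was taken when its centre lay on an autosome, lay outside the regions the authors list as PRDM9-independent, fell inside the coding sequence (CDS) of a protein-coding gene, and lay more than 1 kb from every protein-coding transcript start. The choice used positions alone. Of 60913 autosomal PRDM9-dependent narrow peaks, 58798 lay away from starts. Of these, 2521 (4.29%, exact 95% interval 4.13 to 4.45, counting error only) were in coding exons, 23643 in introns, 939 in other exon sequence of protein-coding genes and 31695 between genes.

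The chromatin came from whole adult testis of (C57BL/6J x CAST/EiJ)F1 males carrying the Prdm9 Hum allele from the B6 side and the Prdm9 Cast allele from the CAST side. Prdm9 Hum is a humanized allele, a mouse gene whose zinc fingers are those of human PRDM9. There were 2 anti-H3K4me3 ChIP libraries and 1 input library of the same genotype, with no other condition. By the labels the testes were those of a single animal and by the study's methods those of littermates, so the spread between the replicates may be technical. Whole testis mixes germ cells at all stages with somatic cells, and a fragment cannot be assigned to a cell type. All 8 germ cell marker genes examined had a narrow peak within 1 kb of a start, as did 5 of 6 Sertoli and Leydig cell genes and 0 of 6 genes of other tissues.

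PRDM9 is a meiotic protein that binds DNA through its zinc-finger array and methylates histone H3 on the neighbouring nucleosomes, and meiotic double-strand breaks form at a subset of these sites. H3K4me3 is also found at active promoters without PRDM9, which is why peaks near starts were set aside. Coding exons are conserved because of the protein they encode, so a PRDM9 site there lies in sequence that also has another function.

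The sequences below come from the GRCm38 (mm10) reference and belong to the members with a motif among those named for their enrichment, so that the site can be seen beside the exon. These were the strongest with at least 5 input fragments and the 5 strongest whatever the input. The study's Prdm9 Cast matrix is 31 bp long and its Prdm9 Hum matrix 48 bp. Their letters with a share of at least 0.6, with N elsewhere, give the core of each motif. In the 4 member sequences the capitals mark the best match within 300 bp of the peak centre and the sequence is printed on the strand of the match.
Prdm9 Cast core: GNCTNGGNNTNTGNCNNTT
Prdm9 Hum core: CNNNNNNNNTNNNNNNNCCCCCCNNNCCCC
Ano7, chr1:93397501-93397561, minus strand: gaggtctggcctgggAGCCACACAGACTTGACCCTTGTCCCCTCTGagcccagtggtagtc
Arl3, chr19:46541348-46541408, minus strand: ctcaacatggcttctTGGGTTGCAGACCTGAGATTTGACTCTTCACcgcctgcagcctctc
Armc3, chr2:19238556-19238616, minus strand: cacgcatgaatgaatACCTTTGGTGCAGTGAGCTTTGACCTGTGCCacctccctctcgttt
Cadm4, chr7:24502518-24502595, minus strand: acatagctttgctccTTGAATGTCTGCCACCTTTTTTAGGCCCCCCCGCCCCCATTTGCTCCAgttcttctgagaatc

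The first 3 match the Prdm9 Cast matrix and the Cadm4 sequence the Prdm9 Hum matrix. In all 4, the match lay outside the coding exon that held the peak centre. It began 128 bp from the edge of that exon in Ano7, 79 bp in Arl3, 40 bp in Armc3 and 86 bp in Cadm4. Ano7 encodes a member of the anoctamin membrane protein family, Arl3 a small GTPase of cilia, Armc3 an armadillo repeat protein and Cadm4 a cell adhesion molecule.

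The other members named in these ways held no match above the limit. For comparison, the sequence around the centre of the peak in Tmtc2 and in Cilp is wholly coding, and the capital marks the centre base.
Tmtc2, chr10:105413486-105413566, plus strand: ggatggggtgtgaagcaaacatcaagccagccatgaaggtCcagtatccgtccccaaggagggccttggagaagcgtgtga
Cilp, chr9:65279473-65279553, plus strand: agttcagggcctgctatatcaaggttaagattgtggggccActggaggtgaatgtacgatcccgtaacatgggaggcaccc

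The first comparison asked whether coding exons hold more or fewer peaks than their length predicts. They held more. Eligible sequence, meaning autosomal bases outside the PRDM9-independent regions and more than 1 kb from a protein-coding start, came to 25.6 Mb of CDS, or 1.12% of 2279 Mb. In proportion to length, 659.9 peaks were expected in coding exons, and the 2521 found were 3.82 times as many. Introns held 1.06 times their expectation and intergenic sequence 0.90 times. Per Mb, there were 98.6 peaks in coding exons, 27.4 in introns and 23.3 between genes. Only sites that passed the authors' peak test could be counted. The median input was 11 fragments at members and 6 at intron peaks, and whether such coverage raised the number of peaks called in coding exons was not tested.

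The excess was seen on each autosome. Density in coding exons ran from 77.5 peaks per Mb on chromosome 12 to 120.3 on chromosome 10, and density in introns from 23.5 on chromosome 3 to 32.0 on chromosome 11, so the ranges do not overlap. The mean log2 ratio of observed to expected peaks was 1.90 ± 0.25 (SD, n = 19 autosomes), above 0 on 19 of 19. The mean log2 ratio of coding to intron density was 1.82 ± 0.23, also above 0 on 19 of 19. Both gave p = 3.81e-06 in an exact test that flips the signs of the autosomes (two-sided permutation test), the smallest that 19 autosomes allow (Benjamini-Hochberg adjusted over 6 tests, 4.58e-06). Autosomes are not animals, so these p-values say nothing of the spread among mice.

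**Figure D1:**
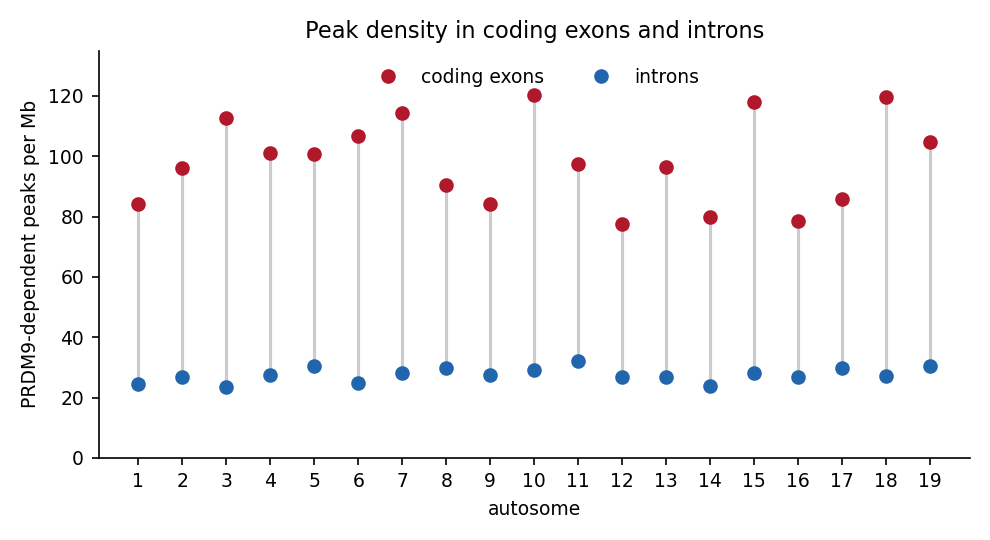
PRDM9-dependent peaks per Mb of eligible sequence (vertical axis) on each autosome, in coding exons (red) and introns (blue), joined by a grey line. Coding exons lie between 77.5 and 120.3 peaks per Mb and introns between 23.5 and 32.0.

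Peaks away from promoters became denser with GC content up to 60% in coding exons, introns and intergenic sequence alike, and members lay in sequence richer in GC than intron peaks did. The median GC content over 250 bp on each side of a member was 54.1%, against 47.5% for intron peaks and 48.1% for intergenic peaks. In introns, density rose from 4.14 peaks per Mb below 35% GC to 192.9 between 60 and 65%. In coding exons it rose from 11.1 to 354.2 over the same bins. At 65% or more, density was 859.6 peaks per Mb in coding exons, 124.5 in introns and 128 in intergenic sequence, so it was lower than in the bin before in the last 2 classes. In each of the 8 GC bins the coding density was above the intron density, by 1.52 times (55 to 60% GC) to 6.90 times (65% or more). The last bin rests on 61 members in 0.071 Mb of CDS and 33 intron peaks.

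At equal GC the excess over introns was smaller but remained. Given the intron density of each GC bin, coding exons held 1.78 times the peaks expected, and the mean log2 ratio over autosomes was 0.85 ± 0.24 (SD, n = 19 autosomes), above 0 on 19 of 19 (exact sign-flip permutation test, p = 3.81e-06, adjusted 4.58e-06). Against intergenic sequence of equal GC the ratio was lower still, at 0.36 ± 0.31 on the log2 scale and above 0 on 17 of 19 autosomes (exact sign-flip permutation test, adjusted p = 0.000206). In the bin of 55 to 60% GC, intergenic sequence held 209 peaks per Mb and coding exons 175.7.

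**Figure D2:**
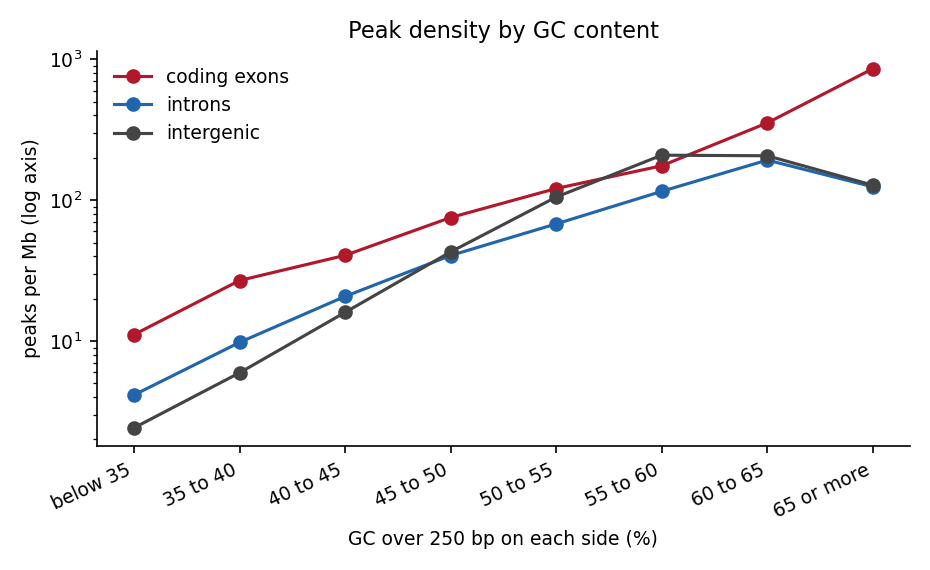
Peaks per Mb of eligible sequence (vertical log axis) against the GC content over 250 bp on each side (horizontal axis, in percent) for coding exons (red), introns (blue) and intergenic sequence (black). Density rises with GC in all 3 classes up to 60%, and the coding line lies above the intron line in each bin.

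The peaks in coding exons were covered by more fragments than those in introns, in the ChIP libraries and in the input alike. The centre of the median member was overlapped by 22 fragments of replicate 1 (quartiles 13 to 40), 24 of replicate 2 (14 to 44) and 11 of the input (7 to 15). The median intron peak had 15 (9 to 28), 17 (11 to 32) and 6 (3 to 9). The interquartile ranges overlap in each library. Spearman's correlation of the replicates across the 2521 members was 0.90, a description only, since the peaks share libraries and local depth.

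The deposited enrichment of a peak is the authors' estimate, from both replicates together, of ChIP signal in excess of local background, as a multiple of that background. It was lower in coding exons, with a median of 2.14 (quartiles 1.23 to 3.68) against 2.85 (1.66 to 5.28) in introns. The log2 ratio of the medians was -0.39 ± 0.15 (SD, n = 19 autosomes) and below 0 on 19 of 19 (exact sign-flip permutation test, p = 3.81e-06, adjusted 4.58e-06). This difference moved with the input. Among peaks with 0 to 4 input fragments, which were 11.3% of members and 35.1% of intron peaks, the medians were 3.63 in coding exons and 4.57 in introns. Among those with 5 to 9 the medians were 2.36 in coding exons and 2.36 in introns, among those with 10 to 19 they were 1.84 and 1.82, and among those with 20 or more 1.58 and 1.32. Among peaks with at least 5 input fragments the log2 ratio was -0.12 (adjusted p = 0.00578 by the same exact test). With intron peaks weighted to the input fragments of the members, an alternative chosen after seeing the data, the log2 ratio was 0.04 and did not pass the test (exact sign-flip permutation p = 0.212). By fragments of both replicates in place of enrichment, also chosen afterwards, coding exons were higher by 0.54 on the log2 scale. Weighting intron peaks to the GC content of the members left -0.11 (adjusted p = 0.00618 by the same exact test).

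**Figure D3:**
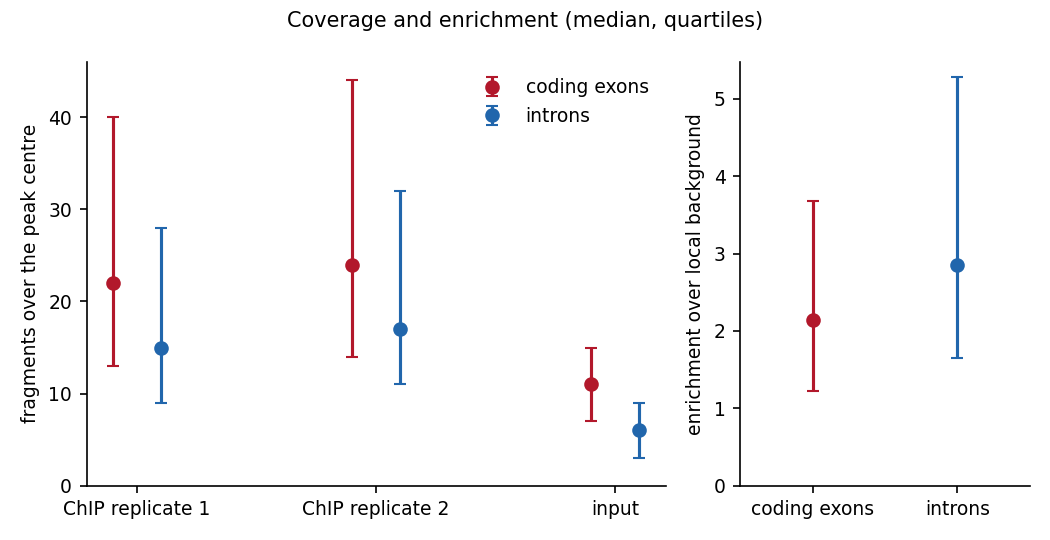
Left, fragments over the peak centre in the 2 ChIP libraries and the input, and right, deposited enrichment (excess over local background, as a multiple of it), for coding exon peaks (red) and intron peaks (blue). Points are medians and bars span the quartiles. Coding exon peaks have higher medians in all 3 libraries and a lower median enrichment, 2.14 against 2.85.

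By deposited enrichment, a measure that moved with the input, a smaller share of members than of intron peaks was strong. An enrichment of 4 or more was reached by 542 members (21.5%), against 33.4% of all autosomal PRDM9-dependent peaks and 35.5% of intron peaks. The 10% of autosomal PRDM9-dependent peaks with the highest enrichment, above 8.69, included 123 members (4.88%). Both replicates lay above the input at 2040 members (80.9%), against 88.0% of all autosomal PRDM9-dependent peaks, and at 481 members they did not. These are raw counts, not scaled for library depth, and the 481 also passed the authors' limit of p under 1e-06. The median input was 11 fragments at members and 6 at all autosomal PRDM9-dependent peaks. The deposited p was under 1e-10 at 1940 members (77.0%), against 69.5% overall. Counting only peaks with an enrichment of 4 or more, coding exons held 21.2 peaks per Mb and introns 9.75. The mean log2 ratio of coding to intron density was then 1.11, and 0.57 at equal GC, above 0 on 19 and on 18 of 19 autosomes (exact sign-flip permutation test, adjusted p = 1.14e-05 and 1.53e-05).

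The strongest members with at least 5 input fragments were each covered by many more fragments in both replicates than in the input. The peak with the highest enrichment of these, 23.9, lay in an exon of 571 bp of Tmtc2 (chr10:105413526), which encodes a membrane protein of the endoplasmic reticulum. Replicate 1 gave 189 fragments there, replicate 2 gave 168 and the input 7. Slc13a4, a sodium-coupled sulfate transporter gene, had 194, 235 and 10 fragments at chr6:35279508 and an enrichment of 20.1. These 2 peaks lie 160909 and 28623 bp from the nearest protein-coding start. From the nearest start of any transcript they lie 19240 and 8666 bp.

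Sf1, which encodes a splicing factor that binds the branch point, had 133, 137 and 7 fragments in its last coding interval (chr19:6376298). Cilp, a gene of the cartilage matrix, had 167, 203 and 10 fragments in an exon of 2564 bp, 861 bp from the nearest edge of that exon (chr9:65279513, enrichment 17.3).

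Ano7 (chr1:93397333) had 106 and 105 fragments over 6 in the input, Arl3 (chr19:46541490) 123 and 141 over 8, and Cadm4 (chr7:24502727) 72 and 95 over 5. Srgap1, which encodes a GTPase-activating protein of the Slit and Robo pathway, had 82 and 116 over 6 (chr10:121840786, enrichment 15.4). In each of these 11 members the lower replicate was above the input by at least 13.7 times.

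The remaining 3 of these 11 lay inside broad peaks that also overlap a PRDM9-independent region, as did that of Cadm4. Srfbp1, which encodes a serum response factor binding protein, had 203 and 224 fragments over 9 at chr18:52488624, in a broad peak of 27500 bp. H2-Q7, a nonclassical MHC class I gene, had 88 and 87 over 5 at chr17:35442327, in a broad peak of 207800 bp, and lies 139 bp from the start of a transcript that is not protein-coding. It belongs to a family of similar genes, so its reads may be shared with other copies. Suclg1, which encodes a subunit of succinyl-CoA ligase, had 95 and 110 over 6 at chr6:73270986.

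**Figure D4:**
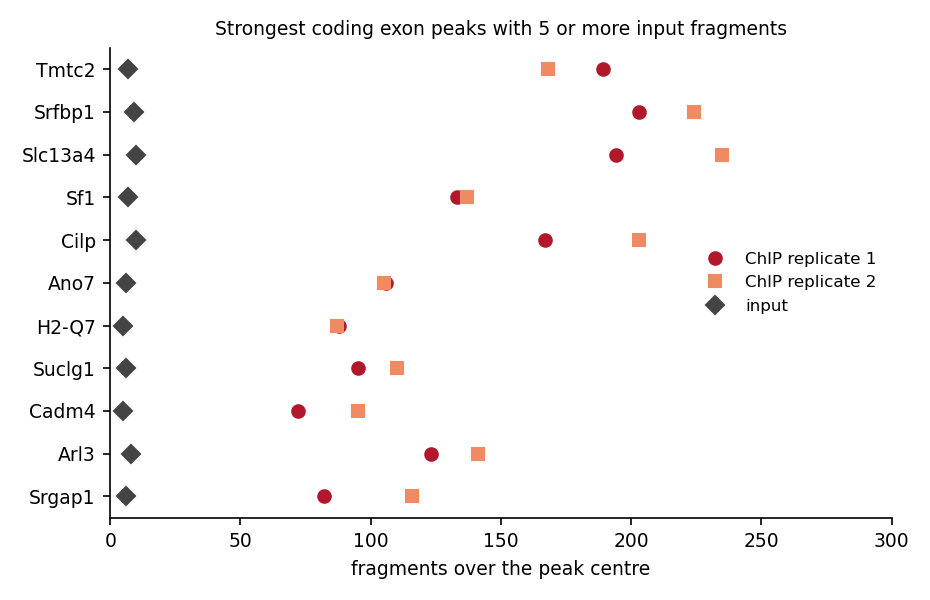
Fragments over the peak centre (horizontal axis) in ChIP replicate 1 (circles), ChIP replicate 2 (squares) and the input (diamonds) for 11 of the coding exon peaks of highest enrichment among those with 5 or more input fragments and both replicates above the input. The inputs lie between 5 and 10 fragments and the ChIP values between 72 and 235.

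Without a lower limit on the input, the highest values rested on very few input fragments. Another peak in Suclg1 reached 40.4 with 45 and 41 fragments over 1, and Armc3 39.4 with 37 and 47 over 1. Clrn2, a clarin family gene of hair cells, reached 30.9 with 17 and 16 over 0, and the predicted gene Gm904 25.3 with 8 and 19 over 0. A further peak in Srfbp1 reached 24.1 with 101 and 105 over 4. Of all members, 2236 had 5 or more input fragments and 4 had 0.

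Most genes with a member had a single peak in their coding exons. Members fell in 2208 genes, 12.5% of the 17696 autosomal genes with eligible CDS. A single member was found in 1956 gene symbols, 2 members in 208 and 3 or more in 44, and 17 members overlapped the CDS of more than a single gene. At most 10 of the 44 are described here, by number of members.

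Ryr1, which encodes the calcium release channel of muscle, had the most members. Its 8 peaks lay in 8 of 110 coding intervals, and 7 further PRDM9-dependent peaks lay in its introns. The weakest had 9 and 12 fragments over 11 in the input, so it did not lie above the input in both replicates, and the strongest 96 and 103 over 8. None of the 8 lay in a broad peak that overlaps a PRDM9-independent region. Pclo, which encodes a scaffold of the presynaptic active zone, had 5 members with enrichments of 1.04 to 3.75, 4 of them outside such broad peaks.

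The other 8 genes had all but 1 of their members in wide broad peaks, the exception being a peak of Snx5. They are St13 (a cochaperone of Hsp70), Tcf25, Suclg1, Dap3 (a mitochondrial ribosomal protein), Spop (an adaptor of a ubiquitin ligase), Snx5 (a sorting nexin), Ostf1 and Srfbp1. All 7 members of St13 lay in the same broad peak of 50400 bp, where replicate 1 gave 33 to 46 fragments, replicate 2 gave 35 to 48 and the input 4 to 10. All 7 of Tcf25 lay in a broad peak of 30900 bp, all 6 of Suclg1 in 29700 bp, all 6 of Dap3 in 26300 bp, all 5 of Spop in 79200 bp, all 5 of Ostf1 in 51500 bp and all 4 of Srfbp1 in 27500 bp, and 4 of the 5 of Snx5 lay in 14700 bp. Each of the 8 genes also held at least 1 PRDM9-independent peak, but so did Ryr1, with 5, and Pclo, with 1. In St13 there were 7 coding and 7 intron peaks although 2.75% of the gene was eligible CDS, in Suclg1 6 and 6 with 3.54%, and in Dap3 6 and 4 with 3.24%. The genes were 36.4 (St13), 30.1 (Tcf25), 28.5 (Suclg1), 30.4 (Dap3), 79.3 (Spop), 20.8 (Snx5), 115.7 (Ostf1) and 26.2 kb (Srfbp1) long. Whether these broad peaks are continuous domains of H3K4me3 was not tested.

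These genes were picked for their number of members, so their counts are a description. All 76 autosomal broad peaks of more than 20 kb, with or without a member, contained 76 members and 504 PRDM9-dependent intron peaks. Over every CDS and intron base inside them, bases near starts included, this is 506 peaks per Mb of CDS and 284.6 per Mb of intron. In all, 272 members (10.8%) lay inside a broad peak that overlaps a PRDM9-independent region, against 7.36% of intron peaks. Their median enrichment was 2.80, against 2.06 at the other 2249 members. Whether PRDM9 made the mark was not tested at these 272 or at any other member, since all libraries share a single genotype. Without such broad peaks the mean log2 ratio of coding to intron density was 1.79, against 1.82 with them.

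The median length of the coding interval that held a member was 228 bp (18 to 8367 bp), and the median distance from the peak centre to its nearer edge was 66 bp. A broad peak contained 2463 members, and in 2002 of these (81.3%) it was wider than the exon. Within 250 bp on each side of a member, 49.5% of the sequence was coding at the median and wholly coding at 442 members (17.5%). At most members, the broad peak thus extended beyond the exon.

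Density differed with the length and the place of the exon. Per Mb of eligible CDS, exons of up to 150 bp held 63.7 peaks, those over 150 and up to 300 bp 101, those over 300 and up to 1000 bp 179.3, those over 1000 and up to 3000 bp 131.3 and those over 3000 bp 47.3. The longest class rests on 41 members. Given the GC content of each class, exons over 300 and up to 1000 bp held 1.44 times the members expected from all coding exons (exact Poisson 95% interval 1.33 to 1.55, counting error only). Exons of up to 150 bp held 0.77 times (0.71 to 0.83), and those over 3000 bp 0.42 times (0.30 to 0.58). By place, the first coding interval of a gene held 1.38 times the expected number (1.14 to 1.64), the last 1.30 times (1.20 to 1.42), the single interval of genes with no other 1.37 times (1.14 to 1.65) and internal intervals 0.89 times (0.85 to 0.93).

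Introns next to coding exons were also denser in peaks than introns further away. Within 200 bp of a coding edge there were 41 peaks per Mb of intron, against 27.2 beyond 200 and up to 500 bp and 25.5 beyond 5000 bp. The intron peaks within 200 bp had a median enrichment of 2.31, a median input of 8 fragments and 51.7% GC. Each of these values lies between that of the members and that of intron peaks beyond 5000 bp, which had 2.93, 6 and 47.1%. Against introns within 1 kb of a CDS only, the mean log2 ratio of coding to intron density was 1.68 (exact sign-flip permutation test, adjusted p = 7.63e-06, above 0 on 19 of 19 autosomes).

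Members were then counted by gene list. The lists were defined by symbol, overlap was not removed, and a ratio to all coding exons is a description. The numbers expected at equal GC do not account for the length or place of the exons in a list. Protocadherins and giant cadherins, cell adhesion genes, held 44 members in 39 of 73 genes, or 260.5 per Mb against 98.6 per Mb in all coding exons, and 2.15 times the number expected at equal GC (exact Poisson 95% interval 1.56 to 2.88). Their strongest member was in Pcdh18, with 34 and 42 fragments over 4 (enrichment 8.81). Ion channel genes held 64 members in 46 of 165 genes, or 196.2 per Mb, and 1.73 times the expected number (1.33 to 2.21). Trpm3, a cation channel gene, led them with 16 and 14 fragments over 1 (enrichment 14.0).

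Olfactory, vomeronasal and taste receptors, the chemosensory genes of large clusters, held 8 members in 8 of 449 genes, or 19.4 per Mb. At equal GC this was 0.51 times the expected number, with an interval of 0.22 to 1.00. Vmn2r14 led them with 8 and 8 fragments over 1. C2H2 zinc finger genes, the class to which Prdm9 belongs, held 66 members in 61 of 445 genes, or 87.3 per Mb and 1.00 times the expected number (0.77 to 1.27). Zfp738 led them with 17 and 10 fragments over 1, in a broad peak of 75700 bp that overlaps a PRDM9-independent region.

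Solute carriers held 51 members in 45 of 351 genes (0.98 times the number expected at equal GC), giant muscle and cytoskeletal genes 47 in 26 of 48 (0.76 times), collagens 15 in 13 of 43 (0.73 times), and mucins 3 in 1 of 12 (0.43 times). The exact Poisson intervals of these 4 ratios include 1. The strongest collagen member was in Col4a1, a basement membrane collagen gene, with 80 and 92 fragments over 7, and lies 11 bp from the start of a transcript that is not protein-coding. The strongest mucin member was in Muc5b, with 104 and 119 over 17, in an exon of 8019 bp. Among 37 meiosis genes with eligible CDS, 4 held a member, which was 1.01 times the number expected at equal GC (0.28 to 2.59). The strongest was in Rec114, a gene required for meiotic double-strand breaks, with 4 and 8 fragments over 2.

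**Figure D5:**
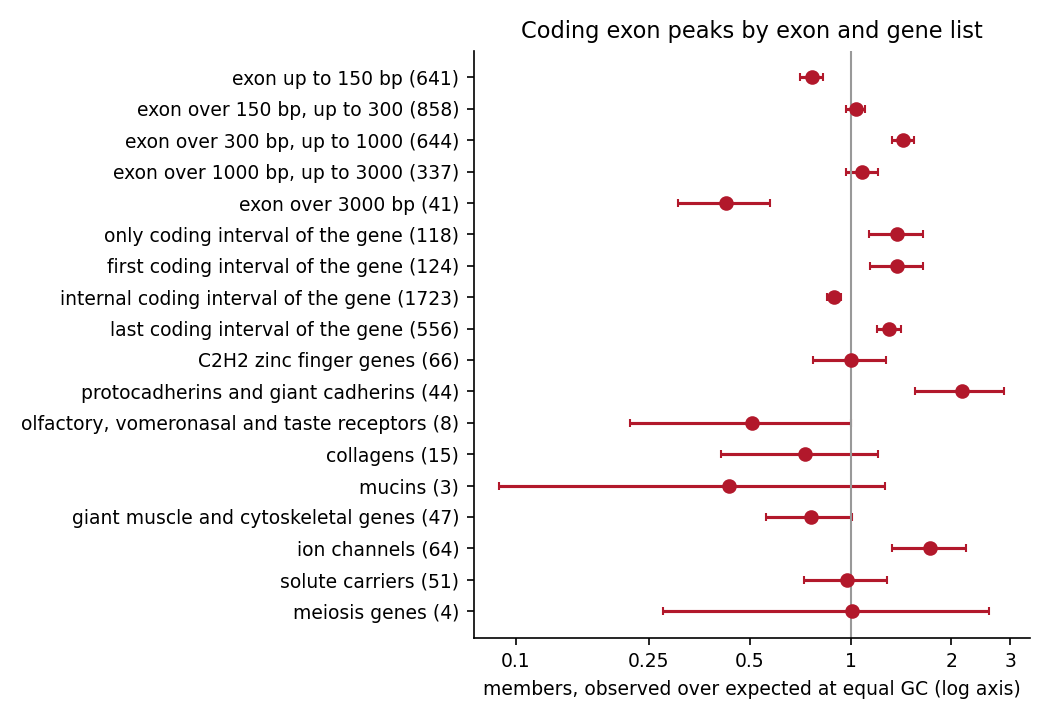
Members observed over members expected from the density of all coding exons in the same GC bins (horizontal log axis), by exon length, place of the coding interval in its gene and gene list, with the number of members in parentheses. Bars are exact Poisson 95% intervals, not adjusted for the number of sets. The gene lists are matched to all coding exons on GC content alone, not on exon length or place. Protocadherins and giant cadherins (2.15) and ion channels (1.73) lie above 1, and exons over 3000 bp (0.42) below it.

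A PRDM9 motif was found at fewer members than intron peaks. A match to the Prdm9 Cast matrix within 300 bp of the centre, above a score that 1% of peak-free windows pass, was found at 228 members (9.04%, exact 95% interval 7.95 to 10.2), at 13.7% of intron peaks and at 11.7% of all autosomal PRDM9-dependent peaks. Peak-free coding windows had a match in 1.63% of cases and peak-free intron windows in 1.13%. The difference between coding exons and introns was -4.58 percentage points ± 2.14 (SD, n = 19 autosomes), below 0 on 18 of 19 (exact sign-flip permutation test, p = 1.14e-05, adjusted 1.14e-05). Against intergenic peaks it was -1.85 points (adjusted p = 0.00395 by the same exact test).

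The Prdm9 Hum matrix matched at 34 members (1.35%, 0.94 to 1.88), at 4.09% of intron peaks and at 3.72% of all autosomal PRDM9-dependent peaks. Peak-free coding windows had a match in 0.51% of cases and peak-free intron windows in 1.09%. The difference was -2.94 points ± 1.34 (SD, n = 19 autosomes), below 0 on 19 of 19 (exact sign-flip permutation test, p = 3.81e-06, adjusted 4.58e-06). Neither motif was found at 2261 members (89.7%) and at 82.4% of intron peaks. No match says only that no sequence in the window passed the limit.

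The matches beside members were often outside the exon. The middle of the Prdm9 Cast match lay in CDS at 97 of 228 members (42.5%), and that of the Prdm9 Hum match at 1 of 34. From peak centre to match, members with a Prdm9 Cast match had a median distance of 145.5 bp and intron peaks 141 bp. With a Prdm9 Hum match these distances were 164.5 and 132 bp. The Prdm9 Cast match was on the coding strand of the gene at 137 of 228 members (60.1%, exact 95% interval 53.4 to 66.5). The strand of matches in peak-free coding windows was not examined.

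Members with a Prdm9 Cast match had a higher median enrichment than those without, a description with no test. With a Prdm9 Cast match alone, 226 members had medians of 33 and 37.5 ChIP fragments over 10 of the input, and a median enrichment of 3.58 (quartiles 1.59 to 6.25). With a Prdm9 Hum match alone, 32 members had a median enrichment of 2.09 (1.42 to 3.72). With neither, the median was 2.06 (1.20 to 3.47), over 21, 24 and 11 fragments. At intron peaks the medians were 4.10, 2.99 and 2.69 in the same order. The quartile ranges overlap between all of these classes.

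At the limit of 1 kb from a start, the members just inside and the coding peaks just outside had similar coverage. The nearest members were in Zfp831 at 1033 bp (46 and 34 fragments over 20), Nrxn3 at 1039 bp (7 and 19 over 12) and B3galt1 at 1045 bp (7 and 11 over 7). Just outside were Gm8246 at 998 bp (6 and 5 over 1), Lrfn1 at 997 bp (26 and 34 over 22) and Aldoc at 995 bp (27 and 32 over 12). In the same order, deposited enrichments were 1.75, 0.89 and 1.08 at the members and 5.05, 1.15 and 2.18 at the peaks outside. The median member lay 11500 bp from the nearest start, and 1362 members (54.0%) more than 10 kb from it. The rule leaves out starts of other transcripts, and 374 members (14.8%) lay within 1 kb of one, among them the Nrxn3 member above, at 104 bp.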

How the data were processed

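The 2 ChIP libraries against H3K4me3 and the input library share a single condition. Per the labels and the study's methods, the authors mapped reads to mm10 with BWA (and, by the methods, Stampy) and used SAMtools and bedtools. Narrow peaks were called by the authors with their own likelihood ratio test of both replicates against the input, at p under 1e-06. The deposited fragment counts are those over each peak centre, not normalized. The deposited enrichment was estimated by the authors from both replicates. By the study's description it is the ChIP signal in excess of local background, as a multiple of that background. The lowest value at a member, 0.33, thus still lies above background. The enrichment becomes imprecise where the input is low. The deposited p-value is from the same test. For broad peaks and PRDM9-independent regions only positions were given. By the study's methods, the PRDM9-independent regions are peak regions that earlier mice with different Prdm9 alleles had in common. A PRDM9-dependent peak here is a peak outside these regions. Because calling was joint, no peak belongs to a single replicate. Over all 101978 narrow peaks the counts sum to 17621116, 19094837 and 1250138 fragments in replicate 1, replicate 2 and the input. Low counts limit the precision of single peaks, and intervals cover counting error only.

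Peak centres were classed with GENCODE vM21 in the order CDS, other exon of a protein-coding transcript, gene body (intron) and intergenic. Eligible bases were counted the same way. The GENCODE build is GRCm38, the same as the files. GC content was taken over 250 bp on each side in 5-point bins, with under 35% and from 65% pooled. Motif matrices of the study were scored on both strands as log odds within 300 bp, with the limit set by 105904 evenly spaced peak-free windows. Coding and intron values were compared per autosome by exact two-sided sign-flip permutation, adjusted together over 6 tests. The scripts were tested on simulated data. Alternatives were other start distances, annotations, GC windows, motif limits, peak sets and each replicate left out of the counts, with the peaks still those called jointly. More were added after seeing the data.

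Members named are the 12 of highest enrichment with at least 5 input fragments and both replicates above the input (1 of them is not reported here), the 5 highest whatever the input, the 3 nearest each side of the 1 kb limit, genes with 3 or more members (at most 10) and the strongest of each gene list. Members and lists were chosen with earlier results of these data known. Chromosome X was left out of all comparisons. Software was numba 0.67.0, scipy 1.17.1, numpy 2.4.6, pandas 2.3.3 and matplotlib 3.10.9 under Python 3.11.15.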

Additional observations from a re-analysis of the deposited data

Results flagged for a closer look

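Chromosome X was outside every comparison above and still held coding exon peaks of the same kind. By the same rule on positions, 57 PRDM9-dependent peaks lay in its coding exons away from starts, and at 56 of them both replicates lay above the input. Their medians were 12 and 16 fragments in the replicates and 4 in the input, with a median enrichment of 4.57. The share of all PRDM9-dependent peaks of chromosome X with both replicates above the input was not computed. The 56 thus cannot be read as particular to coding exons. Males carry a single X chromosome. The median input at autosomal members was 11, and because the inputs differ these values were not set against those of the autosomes.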

How the results depend on the processing

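Of 87 results recomputed under an alternative, 85 kept their direction and their side of the threshold. The exceptions were both of the median enrichment of coding exons over introns, -0.39 on the log2 scale as reported, and both were chosen after seeing the data. It was 0.54 with fragments in place of enrichment, by the construction of that measure, and 0.043 with intron peaks weighted to the input of the members. Over the alternatives, the log2 ratio of coding exons to expectation ran from 1.28 (enrichment of 4 or more) to 2.07, that of coding to intron density from 1.11 to 2.05, and that at equal GC from 0.36 (intergenic in place of introns) to 1.19 (GC over 500 bp on each side). The motif differences ran from -7.71 to -1.41 points for Prdm9 Cast and from -6.93 to -0.55 for Prdm9 Hum, with the ends set by limits of 5% and 0.1%. Peaks were not called again without a replicate. Leaving out replicate 1 or replicate 2 kept the joint calls where the other replicate lay above the input. The density ratios to introns were then 1.74 and 1.74, on peaks that the left-out replicate had helped to call. In place of the deposited enrichment, all joint calls were given the fragments of the other replicate plus 1 over those of the input plus 1. The log2 ratio of coding to intron medians of this measure was -0.28 and -0.25. No paired analysis was possible because there is a single condition with 1 input library. Single peaks with an input of 0 or 1 fragments give no precise enrichment.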

Other observations

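Exon sequence of protein-coding transcripts outside the CDS, mostly untranslated regions, held 939 PRDM9-dependent peaks away from starts in 29.5 Mb, or 31.8 per Mb, against 98.6 per Mb of CDS. These peaks had medians of 17 and 19 fragments in the replicates and 7 in the input, and a median enrichment of 2.69.

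Soft-masked repeats were scarce around the members. The median share of masked bases within 250 bp of the centre was 4.99% at members, 14.4% at intron peaks and 16.2% at intergenic peaks. More than 50% of the bases were masked at 0.40% of members and at 11.3% of intron peaks. Outside repeats, introns held 30.5 peaks per Mb. The ratio of observed to expected CpG dinucleotides was 0.40 at the median member and 0.21 at the median intron peak.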
